A study of Homo sapiens
Mus musculus with 16 samples.

Results

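Tumours of ScaBER, an established human bladder carcinoma line of squamous type, were compared between mice given nintedanib and alpelisib together and mice given nintedanib alone, to ask what adding alpelisib changes in the tumour cells. Reads mapped to the human genome were used, from 4 libraries with both drugs (called the combination libraries) and 4 with nintedanib, 8 of the 16 libraries in the series. Of 23368 human genes listed, the 17663 with a normalized value of at least 1 in 4 or more of the 16 libraries were tested. All 4 groups carried ScaBER cells in Hsd:Athymic Nude-Foxn1nu mice, a strain that lacks a thymus and so most T cells, and all were treated for 14 days. Nintedanib was given at 40 mg/kg, the combination held the same dose with alpelisib (BYL719) at 25 mg/kg, the alpelisib group had 25 mg/kg alone, and the vehicle was 0.5% methylcellulose with 0.1% Tween80. The labels name ScaBER as the grafted cells in every library and also use the term PDX, which usually stands for a graft taken from a patient; the values below are given under the ScaBER label. The labels do not say whether each library is a separate animal, so the p-values reflect only how much these libraries vary, which may be technical. Values below are the deposited normalized values, given in the order of replicates 1 to 4 within a group. Differences are of log2(value + 1), combination minus nintedanib, so that a negative difference is lower with both drugs.

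Nintedanib blocks receptor kinases for VEGF, PDGF and FGF; alpelisib blocks PI3K alpha. PI3K turns growth factor receptor signals into the lipid that recruits AKT, which in turn activates mTOR and keeps FOXO transcription factors out of the nucleus. Squamous epithelium grows from a basal layer and matures into flattened upper layers that make small proline-rich proteins, kallikrein proteases and corneodesmosome proteins; these form and shed the cornified layer, and in squamous carcinoma they mark keratinizing cells.

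The labelled cell type was present in all 8 libraries. KRT5, KRT14, KRT6A, KRT17, TP63, SFN, DSG3 and DSC3, the 8 squamous and basal markers, were read in each, with KRT5 between 62228 and 105719, and their summed value was 330617 to 455368 with nintedanib and 273946 to 429552 in the combination. Of the urothelial markers UPK3A was at 0 in all 8, while UPK1A (22.6 to 50.9), UPK2 (3.18 to 8.76) and KRT20 (0.796 to 7.95) were read in each, and their sum was 31.97 to 47.7 with nintedanib and 32.5 to 58.9 in the combination. The blood marker CD3E was at 0 in 5 of the 8 and the endothelial marker CDH5 in 4, and the summed values of the blood and the endothelial markers stayed under 214 and 81. Recovered human reads ran from 8303617 (nintedanib 4) to 17424797 with nintedanib and from 9277466 (combination 3) to 18568119 in the combination, and mouse reads made up 22.3% to 34.0% and 20.5% to 31.5% of each library. Nintedanib 4 and combination 1 were rich in host skeletal muscle, with mouse muscle scores of 6.76 and 6.11 against at most 2.35 in the other 6. Muscle genes were listed in the human table there too (MYLPF 463 and 399, elsewhere at most 54.1 among the 8). Correlations of log2 values were 0.959 to 0.972 within nintedanib, 0.949 to 0.964 within the combination and 0.947 to 0.972 between them.

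No gene passed. In limma with Benjamini-Hochberg adjustment 0 of 17663 genes had an adjusted p under 0.05 (the smallest was 0.332), and 1638 (9.27%) had an unadjusted p under 0.05, 926 lower with both drugs (5.24%) and 712 higher (4.03%). Scaled to the sum of human and mouse reads, the split was 585 lower and 728 higher. The 2 groups did not overlap for 293 genes lower (1.66%) and 325 higher (1.84%), and the median over all genes was 0.0079. On the recovered reads edgeR called 0 genes and DESeq2 called 4, all higher: TPT1-AS1, COL16A1, CROCCP2 and VAMP1. Since no gene passed in limma, every value below is a description at unadjusted p, and a list is read against those shares of all genes. In bulk tissue, fewer cells of a type and less RNA per cell cannot be told apart.

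The number of genes that passed turned on combination 4. Without it 123 genes passed, 114 lower (0.645%) and 9 higher (0.051%). For the 114, the median position was -0.75, -1.65 and -1.11 from the nintedanib mean in combinations 1, 2 and 3, and -0.016 in combination 4 (log2), so their median was near the nintedanib level in that library. These genes were chosen with combination 4 left out, which by itself tends to place combinations 1 to 3 farther from nintedanib than combination 4, so the positions are a description only. For the 9 higher genes the positions were 0.85, 1.27 and 1.29, and 0.35 in combination 4. Without combination 2, the library at the other end for the lower genes, 0 genes passed and 569 were lower at unadjusted p.

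Small proline-rich proteins and epidermal kallikreins had the lowest medians of the 33 gene lists, and genes of the cornified layer were also low. Of the 47 genes in the lists of small proline-rich proteins, epidermal kallikreins, and cornified envelope and desmosome genes, 44 were below 0, beside 49.2% of all genes. At unadjusted p under 0.05, 23 were lower and none higher, beside 5.24% and 4.03% of all genes, and 0 passed the adjusted threshold. Their median difference was -0.71. These lists were chosen with earlier results of these data known, so counts over the 47 genes, here and below, are a description only. The antimicrobial and defence list, with a median of -0.53 and 2 of 13 lower at unadjusted p, was not joined to them. All 9 small proline-rich proteins, precursors that are cross-linked into the cornified envelope, were below 0 (median -1.13; 7 at unadjusted p), as were all 9 kallikreins, secreted proteases that cut the links between cornified cells (median -0.75; 6), and 26 of the 29 cornified envelope and desmosome genes (median -0.45; 10). The 2 groups did not overlap for 0 of 9, 2 of 9 and 1 of 29 members in the same order, all lower, beside 1.66% of all genes. Without combination 1 the medians of the small proline-rich proteins and of the cornified envelope genes were -0.75 and -0.23. In nintedanib minus vehicle the list medians, in the same order, were 1.57, 0.56 and 0.76, beside 0.021 over all genes. There 9 of 9, 7 of 9 and 19 of 29 members were above 0. The nintedanib libraries enter both comparisons, so the differences are not independent. The count of 23 was 19 when scaled to human plus mouse reads, and 14 without nintedanib 2, without combination 1, and without nintedanib 4 and combination 1 together.

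SPRR2E, a small proline-rich protein, read 2262, 11061, 5834 and 3246 with nintedanib and 866, 2807, 2059 and 1185 in the combination (log2 difference -1.58, SE 0.38, adjusted p = 0.343, limma). Nintedanib 2 was the highest library, and combination 2 lay between nintedanib 1 and nintedanib 4, so the groups overlapped. SPRR1A of the same family read 5365, 8005, 10895 and 8781 with nintedanib and 2415, 7347, 3936 and 4018 in the combination, where only combination 2 reached into the nintedanib range (-0.97, SE 0.31, adjusted p = 0.376). SPRR2D stood at -1.32 (SE 0.38); it and SPRR2E are near copies of each other, and how reads shared by such copies were counted is not given in the sources used here. The same applies to LCE3D and LCE3E below. The mouse table listed Sprr2e at 0 in all 16 libraries and Sprr1a between 0.739 and 19.9 in the 8 compared.

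KLK11, a kallikrein of the upper epidermis, read 544, 819.7, 634 and 959 with nintedanib and 328, 489.5, 425 and 349.6 in the combination (log2 difference -0.88, SE 0.21, adjusted p = 0.343). Every combination library was below every nintedanib library. KLK13 was also separated, at 83.5, 137, 89.7 and 143 against 47.1, 37.4, 41.4 and 54.6 (-1.28, SE 0.37, adjusted p = 0.35). KLK10 read 869.8, 1236, 1309.8 and 1563 against 727, 882, 779.6 and 546 (-0.75, SE 0.18, adjusted p = 0.343), and only nintedanib 1 and combination 2 overlapped, at 869.8 against 882. The other kallikreins at unadjusted p were KLK6, KLK7 and KLK9 (-1.17, -0.99 and -0.71). These proteases were low in combinations 1 and 4 (list scores -1.13 and -1.07) and less so in combinations 2 and 3 (-0.40 and -0.61), whereas nintedanib 1 stood at -0.34 and the other nintedanib libraries between 0.043 and 0.22. A list score is the mean log2(value + 1) of the members with the nintedanib mean set to 0. The mean kallikrein score was -0.60 with vehicle and -0.80 in the combination. For small proline-rich proteins the means were -1.46 and -1.17, and for cornified envelope and desmosome genes -0.64 and -0.41. In each of these lists the ranges of vehicle and the combination overlapped.

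Among genes of the cornified layer, CDSN, which encodes the corneodesmosome protein corneodesmosin, read 531, 1328, 806 and 608 with nintedanib and 221, 646, 487 and 187 in the combination (-1.18, SE 0.34, adjusted p = 0.35). CNFN, which encodes cornifelin, read 1799.6, 1969.7, 1614 and 1149 against 497, 1585, 1093 and 529 (-0.96, SE 0.31, adjusted p = 0.376). The mouse table listed Cnfn at 459, 432, 191 and 137 and 70.99, 169, 84.9 and 126; its part in the human value was not tested. LCE3E, a late cornified envelope protein, stood at -1.20 (SE 0.40) and LCE3D at -1.04. In these genes combinations 1 and 4 were lowest and combination 2 was inside the nintedanib range, joined by combination 3 in LCE3E. IVL, which encodes the envelope protein involucrin, was at -0.60, the desmosomal cadherin DSG1 at -0.87 and desmoplakin (DSP) at -0.52, each at unadjusted p under 0.05. SPINK5, which encodes an inhibitor of some epidermal kallikreins, read 2658, 5107, 2862 and 4747 against 1604, 2343, 1593 and 2963 (-0.84, SE 0.27, adjusted p = 0.376).

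**Figure D1:**
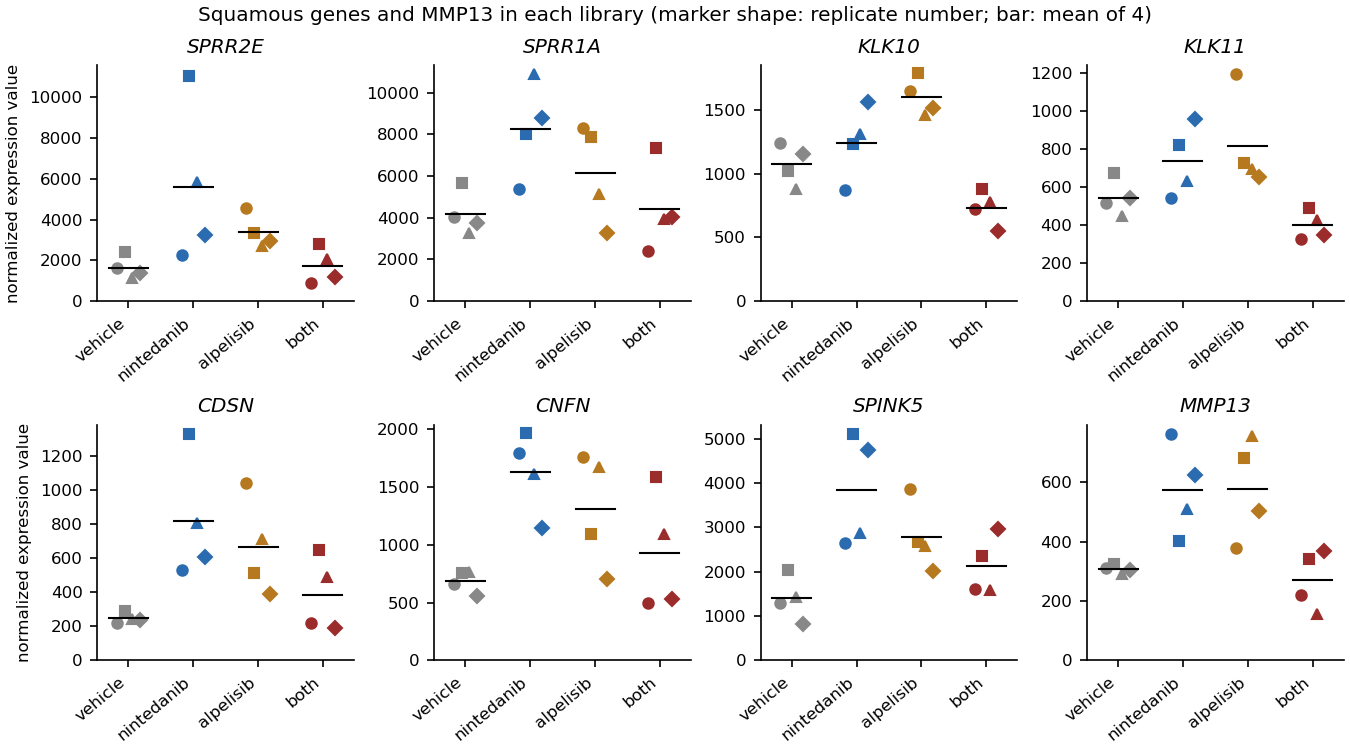
Normalized expression value (y axis, linear from 0) of 7 squamous genes and MMP13 in each of the 16 libraries, by group (x axis); marker shape gives the replicate number and the bar the mean of 4. In KLK11 the 4 libraries with both drugs lie at 328 to 489.5, under the 4 with nintedanib at 544 to 959.

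In each of the other epithelial lists at most 3 genes reached unadjusted p. Of 16 serpins and protease inhibitors 11 were below 0 (median -0.27) and 2 were lower at unadjusted p, SPINK5 and the squamous serpin SERPINB3 (-0.79, SE 0.32). Of 13 antimicrobial and defence genes 10 were below 0 (median -0.53) and 2 reached unadjusted p, the antimicrobial ribonuclease RNASE7 (-1.15, SE 0.47) and the interleukin 1 receptor antagonist IL1RN (-0.53, SE 0.19). None of 22 suprabasal keratins and regulators did (median -0.22); KRT1, the keratin of the spinous layer, read 3412, 5327, 4355 and 13836 with nintedanib and 4023, 5027, 1728 and 4266 in the combination, and its difference of -0.72 was -0.30 without nintedanib 4. The basal keratinocyte list had a median of 0.0023 over 18 genes, with 2 lower and 1 higher at unadjusted p. DST, a linker of hemidesmosomes to the cytoskeleton, read 16724, 19614, 12196 and 11183 against 8814, 3701, 6962 and 12613 (-0.99, SE 0.30), and ITGB1, an integrin subunit, stood at -0.41 (SE 0.17). COL7A1, the collagen of anchoring fibrils, read 1823, 1465, 1143 and 1217 with nintedanib and 1555, 2691, 3107 and 2049 in the combination (0.71, SE 0.22, adjusted p = 0.376). Of 14 S100 proteins, calcium-binding proteins of which many lie beside the cornified genes, 1 reached unadjusted p, S100A3 at 1.08 (SE 0.38; list median -0.093), and none of 13 urothelial differentiation genes did (median 0.10).

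Most of these squamous genes had the opposite sign where alpelisib was given without nintedanib. In alpelisib minus vehicle, a comparison that shares no library with the one above, 43 of the 47 were above 0 (median 0.59), where 48.9% of all genes were below 0, and 41 had opposite signs in the 2 comparisons. Over all genes tested 46.6% had the same sign in both. The medians were 1.08 for small proline-rich proteins, 0.61 for kallikreins and 0.27 for cornified envelope genes, and 5, 5 and 11 members were higher at unadjusted p, beside 1.69% of all genes (0.793% were lower, 2.48% either way). SPRR2E read 1641, 2396, 1132 and 1359.95 with vehicle and 4555, 3361, 2690.5 and 2938 with alpelisib (1.08), and no alpelisib library was as low as a vehicle library. CDSN read 221, 288, 242 and 234 and 1039, 515, 714 and 392 (1.34). KLK10 read 1239, 1021, 879.5 and 1153 and 1647, 1789.5, 1462 and 1517 (0.59). All 3 genes were separated upward between vehicle and alpelisib, as were 1.23% of all genes. Host skin transcripts stood high in alpelisib 1, where the mouse table listed Cdsn at 127, Klk10 at 53.8 and Sprr1a at 456, against at most 0, 3.73 and 36.8 in the other vehicle and alpelisib libraries. Without alpelisib 1 the differences were 0.93 for SPRR2E, 1.09 for CDSN and 0.57 for KLK10, and 38 of the 47 genes were above 0 (median 0.43).

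The difference of those differences was tested as an interaction, in which a negative value says that the alpelisib difference was lower in the presence of nintedanib than in its absence. In limma 0 genes passed (smallest adjusted p 0.205) and 1100 (6.23%) had an unadjusted p under 0.05, 657 negative (3.72%) and 443 positive (2.51%); edgeR called 0. Of the 47 squamous genes 28 were negative at unadjusted p. KLK10 stood at -1.34 (SE 0.26, adjusted p = 0.205), CDSN at -2.52 (SE 0.49, adjusted p = 0.205), SPRR2E at -2.66 (SE 0.54, adjusted p = 0.205) and SPINK5 at -1.87 (SE 0.38, adjusted p = 0.205). DESeq2 on the recovered reads called 10 genes in this test: MMP13, CDSN, KLK10, SPINK5, KLK11, WFDC12, ALOX12B, KLK7, SULT2B1 and SPRR2G, of which WFDC12, ALOX12B, SULT2B1 and SPRR2G are named because of that call. Limma called 8 genes without combination 2, and 3 (SPRR2G, KLK10 and SPRR2E) without nintedanib 1. The mouse skin score was 5.26 in alpelisib 1 (against -0.60 to 1.69 in the 8 libraries compared), and without that library the interaction was negative at unadjusted p for 26 of the 47.

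**Figure D2:**
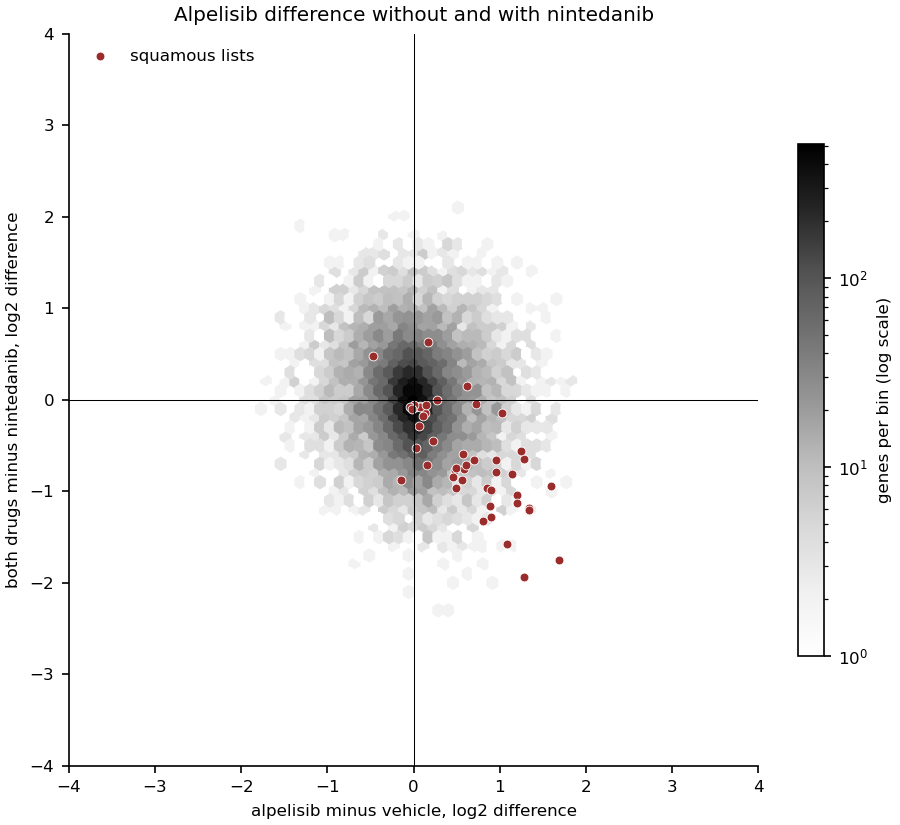
Log2 difference of both drugs minus nintedanib (y axis) against alpelisib minus vehicle (x axis) for the 17663 genes tested; grey bins count genes on a log scale and red points are the 47 genes of 3 squamous lists. Most red points, 41 of 47, lie where the 2 differences have opposite signs, chiefly to the right of 0 and under 0.

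MMP13, a collagenase, was the gene with the smallest p in the interaction test (-1.98, SE 0.36, adjusted p = 0.205). It read 764, 401, 509 and 624 with nintedanib and 219, 342, 158 and 368 in the combination (-1.12, SE 0.26, adjusted p = 0.343), and the groups did not overlap. With vehicle it read 311, 324, 292 and 303 and with alpelisib 377, 680.1, 754 and 502. The mouse table listed Mmp13 at 8963, 5577, 8777 and 1902 with nintedanib and 1659, 1618, 3112 and 3932 in the combination, where the groups overlapped through nintedanib 4; whether host reads entered the human value was not tested. MMP1, another collagenase, stood at -0.59 (SE 0.34) with nintedanib and 1.23 without. Over the 15 genes of the metalloproteinase and plasminogen list the median was -0.036, and 1, MMP13, was lower at unadjusted p.

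The genes of the drugs' own pathways differed little. Of 29 PI3K, AKT and mTOR components the median was 0.0034, with 2 lower and 1 higher at unadjusted p. PIK3CA, the subunit that alpelisib inhibits, read 66.98, 136, 105 and 87.5 with nintedanib and 45.03, 46.96, 66.8 and 191 in the combination (-0.40, SE 0.37, interval -1.17 to 0.36); combination 4 was the highest of the 8 and combinations 1 to 3 were under the lowest nintedanib library. The difference was -0.86 without combination 4 and -0.18 without combination 1. Its relatives PIK3CB and PIK3CD stood at 0.067 (SE 0.19) and -0.0038 (SE 0.44), the latter with a sign that turned under other settings, among them 0.40 without combination 4. INPP5D, the phosphatase SHIP1 that removes the PI3K product, read 26.96, 34.2, 34.4 and 45.4 against 9.42, 16.7, 19.1 and 19.5 and was separated (-1.10, SE 0.38, adjusted p = 0.388). Its level was near that of the blood markers PTPRC and CSF1R (medians 31.2 and 21.5 over the 8). Whether reads of blood cells or the host entered the INPP5D value was not tested. PHLPP2, a phosphatase that acts on AKT, read 13.05, 24.7, 21.002 and 10.1 against 41.9, 45.4, 28.6 and 26.9, separated upward (1.06, SE 0.38, adjusted p = 0.39). PIK3C2A, a class II PI3K, stood at -0.64 (SE 0.24).

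Upstream, none of 25 receptors and adaptors reached unadjusted p (median 0.08). FGFR3, a target of nintedanib, read 489.7, 450.4, 404 and 572 with nintedanib and 414, 876, 499.6 and 549.6 in the combination (0.24, interval -0.17 to 0.65). FGFR2 stood at 0.10 (interval -0.34 to 0.54; -0.0071 without nintedanib 3) and FGFR1, read at no more than 13.9, at 0.85 (interval -0.35 to 2.06). The receptor kinases AXL and ERBB2 stood at 0.32 (SE 0.20) and -0.30 (SE 0.20). Among 9 EGF-family ligands (median -0.13), EREG read 213, 326, 409.5 and 357 against 222, 94.7, 127 and 313 (-0.90, SE 0.36), and NRG4 read 5.22, 3.98, 5.73 and 1.68 against 2.09, 18.3, 25.5 and 24.9 (1.55, SE 0.64), high in 3 of the 4 combination libraries at low values. HBEGF, at -0.51 (SE 0.27), was -0.13 without nintedanib 3.

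Of 27 FOXO target genes, which FOXO factors transcribe when AKT is inactive, 18 were below 0 (median -0.083), and 2 were lower and none higher at unadjusted p. TNFSF10, the death ligand TRAIL, read 4368, 3739, 3557 and 6018 with nintedanib and 3223, 1141, 1771 and 3115 in the combination (log2 difference -1.03, SE 0.28, adjusted p = 0.343). The groups did not overlap, and combinations 2 and 3 were lowest. BBC3, the BCL2-family protein PUMA, was at -0.55 (SE 0.24) and the ubiquitin ligase FBXO32 at -0.46 (SE 0.25). BBC3 was also the 1 gene of 16 in the BCL2 family at unadjusted p (list median -0.072; BAX -0.42). None of 23 genes of ERK pathway output reached it (median -0.051; the transcription factor ETV4 -0.36, SE 0.22). Of 32 cholesterol and fatty acid synthesis genes, a program that AKT and mTOR support, 1 did (median -0.066): FADS2, a fatty acid desaturase, read 80.02, 83.6, 58.2 and 82.5 against 41.9, 45.4, 33.4 and 28.96 and was separated (-1.01, SE 0.30, adjusted p = 0.354). LSS, the synthase of lanosterol, stood at 0.45 (SE 0.23).

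By group means most genes of mitosis were lower and most genes of DNA replication higher with both drugs. The replication score was above the nintedanib range only in combination 1. Of 28 cell cycle and mitosis genes 21 were below 0 (median -0.29), 7 lower and 1 higher at unadjusted p. Of 32 replication genes and E2F targets 22 were above 0 (median 0.20), 6 higher and 1 lower at unadjusted p. Over all genes 49.2% were below 0, and 5.24% were lower and 4.03% higher at unadjusted p. Both counts moved with single libraries, and the replication median was 0.067 without combination 1. The 7 mitosis genes were 2 without combination 2 and 15 without combination 1. The 6 replication genes were 2 without combination 1, 2 without nintedanib 1 or nintedanib 2, and 3 without nintedanib 4 or combination 3. They were 4 without combination 2 and 0 without nintedanib 4 and combination 1, the libraries rich in host muscle. In alpelisib minus vehicle 4 of the 28 mitosis genes (median -0.17) and 6 of the 32 replication genes (median -0.11) were above 0.

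CENPE, a kinesin of the kinetochore, read 678, 707, 495 and 533 with nintedanib and 293, 81.99, 146 and 506 in the combination (log2 difference -1.53, SE 0.41, adjusted p = 0.343). Combination 4 was within the nintedanib range and the other 3 were below it. CENPF, another kinetochore protein, read 2634, 2371, 2045 and 2055 against 1858, 728, 918 and 2058 (-0.84, SE 0.26), and TOP2A, the topoisomerase that untangles sister chromosomes, 6218, 4896, 4703 and 5165 against 5459, 2215, 2611 and 3978 (-0.64, SE 0.23). In both, combinations 2 and 3 were the lowest of the 8. CENPE and CENPF were among the 114 genes that passed as lower without combination 4. POLE, the catalytic subunit of a replicative polymerase, read 224, 195, 178 and 162 with nintedanib and 276, 242, 258 and 326 in the combination, separated upward (0.54, SE 0.20, adjusted p = 0.409), as was GINS1 of the replicative helicase (0.51, SE 0.21). UHRF1, which maintains DNA methylation at replication, stood at 0.41 (SE 0.17) with combination 4 lowest of its group. The mitosis score was 0.10, -0.63, -0.46 and -0.24 in the combination and 0.091, -0.082, 0.0027 and -0.012 with nintedanib. The replication score was 0.48, 0.036, -0.086 and -0.0097 in the combination and 0.10, -0.10, 0.12 and -0.11 with nintedanib. Combination 1 was the highest of its group in both, and combinations 2, 3 and 4 lay within the nintedanib range for replication.

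Of 19 G1 cyclins and CDK inhibitors (median -0.011), CDK6, the partner kinase of D cyclins, was lower at unadjusted p (-0.76, SE 0.26), and CCND2, a D cyclin, was separated upward at 70.5, 60.5, 68.7 and 47.1 against 121, 85.2, 103 and 72.7 (0.62, SE 0.32, adjusted p = 0.577). Of 24 ribosome biogenesis genes 17 were below 0 (median -0.075) and 5 were lower at unadjusted p. NOP58, a core protein of small nucleolar particles, read 3560.1, 2344, 2341 and 2137 with nintedanib and 2517, 966, 1075 and 1775 in the combination (-0.79, SE 0.25), the nucleolar protein NPM1 stood at -0.67 (SE 0.24) and the helicase DDX21 at -0.58 (SE 0.20). In each, combination 1 was within the nintedanib range and combinations 2, 3 and 4 were below it. The count of 5 was 3 without combination 2.

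**Figure D3:**
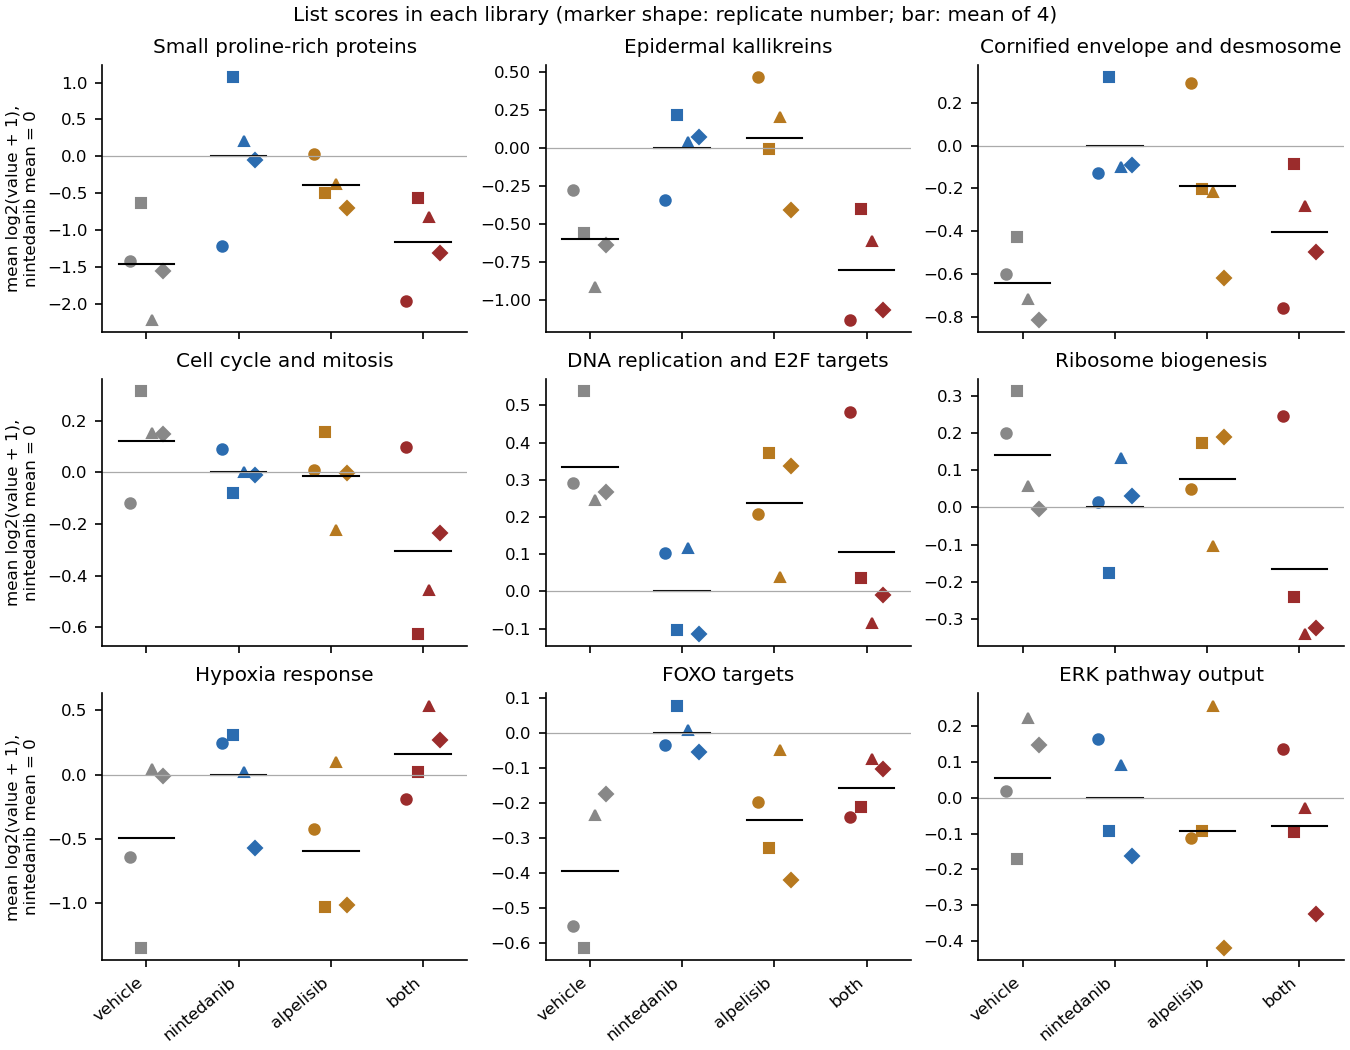
Mean log2(value + 1) of 9 gene lists (y axis, nintedanib mean set to 0, grey line) in each of the 16 libraries by group (x axis); marker shape gives the replicate number and the bar the mean of 4. In the cell cycle panel combinations 2 and 3 lie at -0.63 and -0.46 while combination 1 lies at 0.10.

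Beyond the lists, the genes with separated groups, at least median expression and the smallest p were taken, 10 in each direction. Of the 10 lower genes 1 carries a date in place of a symbol in the table and is not named. The other 9 were GOLGA4, UACA, ZC3H13, SLK, GOLGB1, SRP72, PNPLA8, and MMP13 and KLK11 described above. GOLGA4, a golgin tether of the trans-Golgi, read 3265, 3440.3, 2597 and 2661 with nintedanib and 1642, 511, 843 and 2133 in the combination (log2 difference -1.42, SE 0.32, adjusted p = 0.332). UACA, an ankyrin-repeat coiled-coil protein, read 1151, 1082, 973 and 885 against 635, 291, 444 and 645 (-1.08, SE 0.23, adjusted p = 0.332). In both, combination 2 was lowest and combination 4 highest of its group. Mouse Golga4 read 335.8, 361.7, 269.6 and 472.2 with nintedanib and 357.9, 100.6, 190.4 and 365.9 in the combination. There too combination 2 was lowest and combination 4 highest of its group, while combinations 1 and 4 lay within the nintedanib range. Whether host reads entered the human GOLGA4 value was not tested.

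The same order held for 6 of the 10 lower human genes. How often each library was the extreme over all genes was not counted, here or for the higher genes. Combination 2 was the lowest library for 8 of the 10 and combination 4 the highest of its group for 7. ZC3H13, of the complex that writes N6-methyladenosine in RNA, read 1268, 1018, 988 and 988 against 759, 273, 452 and 635 (-1.10, SE 0.24). GOLGB1, the Golgi tether giantin, stood at -0.99 (SE 0.24), the kinase SLK at -1.12 (SE 0.26), SRP72 of the signal recognition particle at -0.71 (SE 0.18) and the phospholipase PNPLA8 at -1.08 (SE 0.27). For 9 of the 10 all nintedanib libraries were above all vehicle libraries, beside 4.86% of all genes, and for all 10 the combination overlapped vehicle: GOLGA4 read 821, 1783, 1783 and 1459 with vehicle, where its nintedanib difference was 1.09. Of the 10 higher genes, 2 (SNHG3 and CARKD) had all nintedanib libraries below all vehicle libraries, beside 3.22% of all genes, and 9 overlapped vehicle in the combination, PRDX4 lying above it. The nintedanib libraries enter both comparisons, so the 2 differences are not independent.

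The 10 higher genes were COL16A1, CROCCP2, SNHG3, RPS7, MIR205HG, CARKD, D2HGDH, PRDX4, TCTN3 and MRPL36. COL16A1, a collagen chain, read 132, 99.5, 86.9 and 84.1 with nintedanib and 154, 231, 321 and 259 in the combination (log2 difference 1.23, SE 0.26, adjusted p = 0.332), with combination 3 highest. Mouse Col16a1 read 2604, 2044, 2326 and 933 with nintedanib and 1229, 2159, 1360 and 1303 in the combination. Whether host reads entered the human COL16A1 value was not tested. CROCCP2, a pseudogene whose reads may be shared with its parent gene, read 100.03, 162, 144 and 145 against 248, 346, 348 and 364 (1.25, SE 0.28). SNHG3, a host gene of small nucleolar RNAs, read 571, 839.6, 624 and 537 against 1402, 1668, 2160.5 and 855 (1.19, SE 0.29). MIR205HG, the host transcript of a microRNA of squamous and basal epithelium, read 12543, 14566, 11419 and 10499 with nintedanib and 18345, 29377, 39466 and 17124 in the combination (1.01, SE 0.26, adjusted p = 0.343). Combination 3 was the highest library for 8 of the 10 and combination 4 the lowest of its group for 7.

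The remaining higher genes act in ribosomes, mitochondria, the endoplasmic reticulum and cilia. RPS7 of the small ribosomal subunit read 11798, 10144, 8937 and 6395 against 17519, 15903, 31574 and 16134 (1.09, SE 0.29), and combination 3 stood apart from the other 3. MRPL36 of the mitochondrial ribosome was at 0.63 (SE 0.18), the endoplasmic reticulum peroxiredoxin PRDX4 at 0.77 (SE 0.21), the metabolite repair enzyme CARKD at 0.96 (SE 0.24), the hydroxyglutarate dehydrogenase D2HGDH at 0.94 (SE 0.25) and TCTN3 of the ciliary transition zone at 0.67 (SE 0.19). A list of ribosomal proteins was added after these values were seen. Of its 76 tested members 51 were above 0 (median 0.16), where 49.2% of all genes were below 0. At unadjusted p 12 were higher and 0 lower, beside 4.03% and 5.24% of all genes. The groups were separated upward for 9 and downward for 1, beside 1.84% and 1.66% of all genes. The score was 0.22, 0.28, 0.51 and -0.14 in the combination and 0.031, -0.043, 0.14 and -0.12 with nintedanib, so combination 4 was under every nintedanib library while combinations 1 to 3 were above all 4. Many of these genes have processed pseudogenes, which can take some of their reads.

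**Figure D4:**
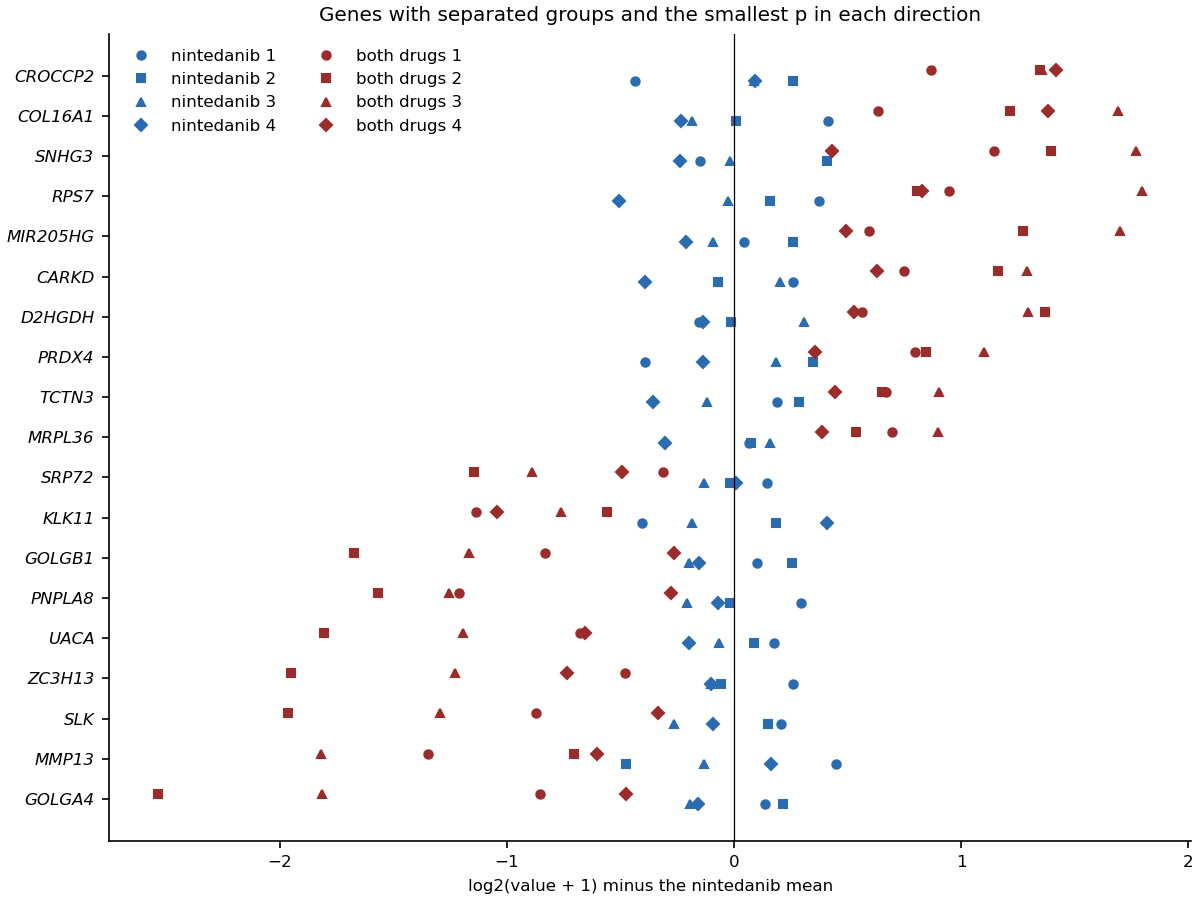
Log2(value + 1) minus the nintedanib mean (x axis) for 19 genes with separated groups (y axis), 4 nintedanib libraries in blue and 4 with both drugs in red, marker shape giving the replicate number. In GOLGA4 combination 2 (square) lies farthest left and combination 4 (diamond) nearest the nintedanib libraries.

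The medians of the glycolysis, hypoxia response and oxidative phosphorylation lists lay slightly above 0. Of 20 glycolysis genes 17 were above 0 (median 0.18) and of 24 hypoxia response genes 18 (median 0.22), none in either list at unadjusted p. The hypoxia median was -0.0089 without nintedanib 4, the muscle-rich library with the lowest hypoxia score (-0.57). ADM, the peptide adrenomedullin, read 3745, 3187, 2623 and 1898 with nintedanib and 3688, 4208, 5836 and 3872 in the combination (0.64, SE 0.33). VEGFA, the angiogenic ligand of receptors that nintedanib blocks, read 1029, 1377, 1320.3 and 804 against 1161, 1240.2, 2264 and 1546 (0.44, SE 0.23), and the collagen hydroxylase P4HA1 stood at -0.43 (SE 0.28). In ADM 1 nintedanib library overlapped the combination, and VEGFA overlapped more widely. PGAM1 of glycolysis was at 0.20 (SE 0.15). Of 25 oxidative phosphorylation genes 18 were above 0 (median 0.18) and 2 were higher at unadjusted p, COX7B at 1821, 1929, 677 and 481 against 3262, 1752, 2253 and 2100.1 (1.14, SE 0.40) and NDUFA4 (0.69, SE 0.33), both of the respiratory chain. Of 20 ATF4 amino acid stress genes 1, the serine synthesis enzyme PSPH, was higher at unadjusted p (0.47, SE 0.19; list median 0.17).

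Inflammatory and immune genes of the tumour cells gave few differences. The NF-kB target list had a median of -0.28 over 24 genes and 2 lower at unadjusted p, but its score was -0.42, -0.24, 0.90 and -0.24 with nintedanib and -0.03, -0.35, -0.13 and -0.24 in the combination, and the median was 0.11 without nintedanib 3. NFKBIA, the inhibitor that NF-kB induces, read 2508, 2299.9, 6455 and 2937 against 2314, 1955, 2504 and 1669 (-0.63; -0.30 without nintedanib 3), and BIRC3, an inhibitor of cell death, stood at -0.95 (SE 0.43). The interferon list had a median of 0.011 over 26 genes, 2 lower at unadjusted p, among them IFIT1, which binds viral RNA, at 2827, 2055, 1930.3 and 2684 against 2439, 1062, 1037 and 1543 (-0.71, SE 0.25). In the antigen presentation list 1 of 21 was higher at unadjusted p (median -0.0013), the MHC class I regulator NLRC5 (0.67, SE 0.26). Of 24 mesenchymal and matrix genes 17 were above 0 (median 0.20) and 2 were higher at unadjusted p. TAGLN, a smooth muscle actin-binding protein, read 110.5, 51.7, 91.6 and 85.8 with nintedanib and 141, 121, 167 and 152 in the combination and was separated (0.81, SE 0.30), and the cadherin CDH2 stood at 0.91 (SE 0.38). The marker lists of blood and immune cells, endothelium and skeletal muscle in the human table had medians of -0.04, 0.19 and 0.20 and no member at unadjusted p. With 1 library left out these medians ran from -0.19 to 0.12, -0.078 to 0.22 and -0.45 to 1.19.

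**Figure D5:**
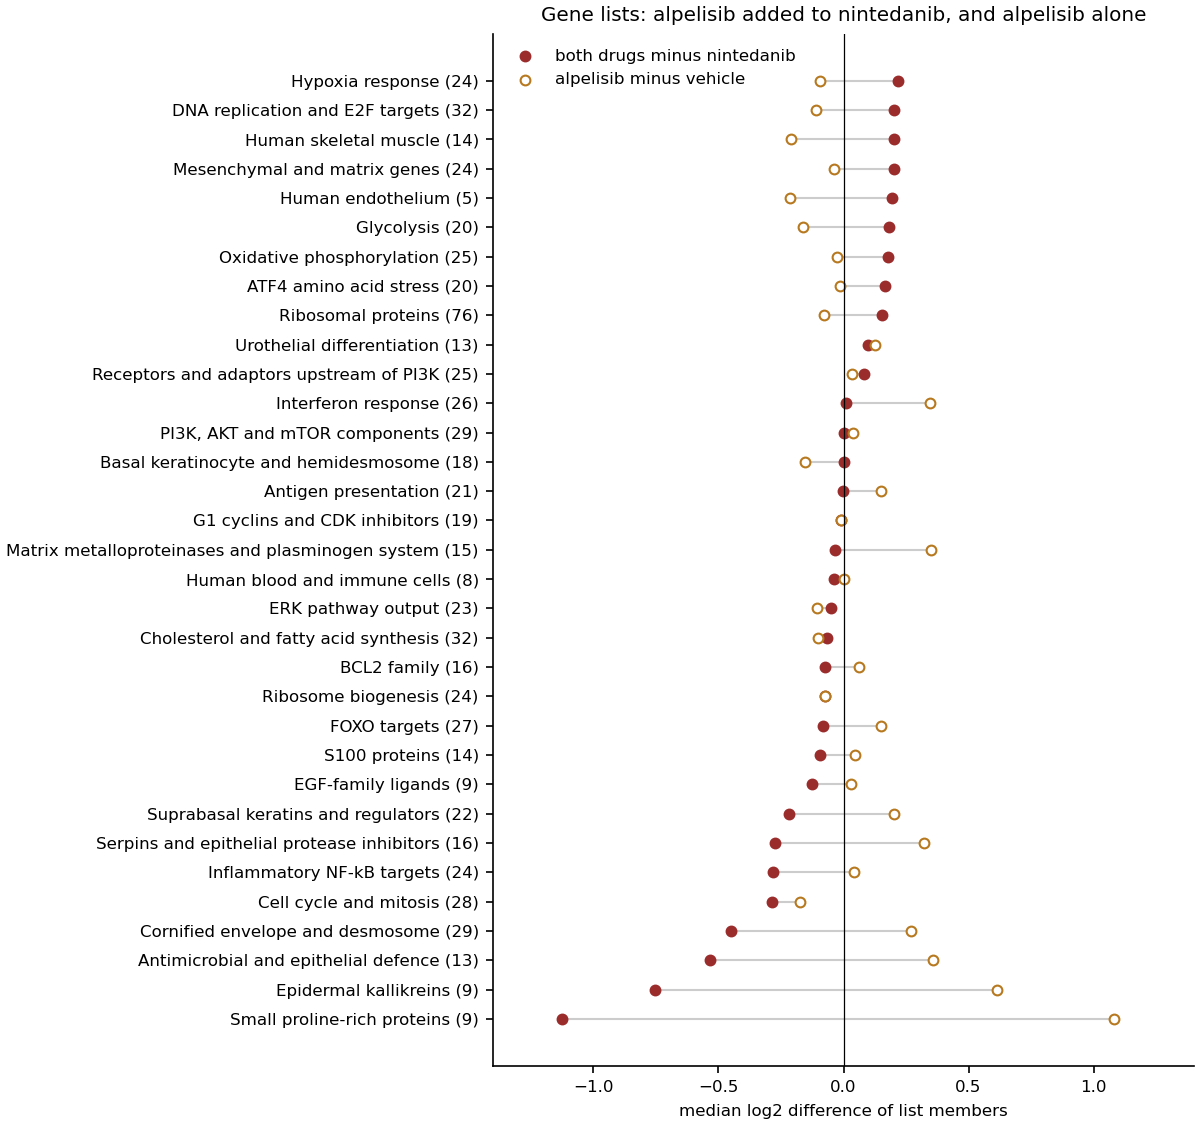
Median log2 difference (x axis) of the members of 33 gene lists (y axis, tested members in brackets): both drugs minus nintedanib (filled) and alpelisib minus vehicle (open), joined by a line. The small proline-rich proteins lie farthest apart, at -1.13 with nintedanib and 1.08 without.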

How the data were processed

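Libraries of 3′ ends of polyadenylated RNA (QuantSeq) from tumours (16 libraries) were sequenced; per the submitters' processing notes TopHat was used with hg19 and mm10. The counting tool, annotation, strand setting and scaling: not given in the sources used here. The deposited signal gives 1 normalized value for each gene in each library, and 100% of values above 0 were whole multiples of 1 step per library (tolerance 0.01 read), so whole reads could be recovered. Values were taken as log2(value + 1) and tested in limma 3.58.1 (R 4.3.3; trend; 4 group means over 16 libraries; Benjamini-Hochberg, threshold 0.05), after tests on simulated data. EdgeR 4.0.16 quasi-likelihood and DESeq2 1.42.0 ran on recovered reads as alternatives. Intervals are 95%. Library totals bound the precision. Lists hold symbols by function, and lists are described by counts and medians with no set test. Named genes were, by rule, the 10 separated genes of at least median level with the smallest p in each direction, up to 3 of each list by p, and the drugs' targets; other genes were named after their values were seen. The comparison, lists and rule were chosen with earlier results of these data known. Of the human rows 14 carry dates in place of symbols. No sequences or coordinates are given.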

Additional observations from a re-analysis of the deposited data

Results flagged for a closer look

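In 20 of 248 sets of 4 libraries examined (83 genes, the list scores, depth and mouse share, in nintedanib and in the combination), 1 library lay far from the other 3 by Dixon's ratio; chance gives about 1 in 20. None was explained or tested further. In the nintedanib group, ZC3H13 was high in nintedanib 1 (1268 against 988 to 1018) and PIK3CB in nintedanib 2 (215 against 172 to 177), FADS2 was low in nintedanib 3 (58.2 against 80.02 to 83.6) and AXL low (849.8 against 1128 to 1163) and BAX high (486 against 260.2 to 284) in nintedanib 4. In the combination, CROCCP2 (248 against 346 to 364) and NRG4 (2.09 against 18.3 to 25.5) were low in combination 1, FGFR1 in combination 2 (4.78 against 9.55 to 10.8), ERBB2 in combination 3 (651 against 931 to 957) and UHRF1 in combination 4 (389 against 569 to 607), while RPS7 was high in combination 3 (31574 against 15903 to 17519).

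Of the list scores, serpins and protease inhibitors were low in nintedanib 1 (-0.49 against 0.11 to 0.23), cornified envelope genes high in nintedanib 2 (0.32 against -0.13 to -0.089), and NF-kB targets (0.90 against -0.42 to -0.24) and host skin transcripts (1.69 against 0.045 to 0.31) high in nintedanib 3. Nintedanib 4 was low in glycolysis (-0.26 against 0.063 to 0.11) and host fibroblast transcripts (-0.46 against 0.36 to 0.49) and high in skeletal muscle transcripts of the human table (2.86 against -1.17 to -0.65) and of the mouse table (6.76 against -0.50 to -0.067). Host endothelial transcripts were highest in combination 1 (-0.25 against -0.91 to -0.83). Mouse scores are relative to the vehicle mean.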

How the results depend on the processing

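The gene tests were recomputed under other scalings, filters, pseudocounts and tools, without each library in turn, and with array weights (chosen after the data were seen). The count of genes past the adjusted threshold was 0 except with no filter on low values (1, HIST4H4), limma without the trend (2, HIST4H4 and NBPF14), DESeq2 (4), and with 1 library left out, where it ran from 0 to 123. Genes lower at unadjusted p numbered 585 when values were scaled to human plus mouse reads and 569 to 1558 with 1 library left out, and genes higher 408 (without combination 3) to 969. The interaction count was 2 without the trend, 10 in DESeq2 and 0 to 8 with 1 library left out.

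Same-numbered libraries of the 2 groups deviated together with r of 0.12, -0.11, 0.069 and 0.050, and not every library correlated best with its own number. The labels do not say what the number stands for, and whether such libraries shared a batch was not tested. With the replicate number as a block the count of genes stayed 0 and the interaction count was 3 (SPRR2E, LCE3E and CDSN).

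Of the list medians, EGF-family ligands stood at -0.37 with a value of at least 10 and metalloproteinases at -0.16 without nintedanib 4 and combination 1; with 1 library left out, 17 of the 33 list medians turned sign and 15 of the other 16, all but the kallikreins, moved by more than 1.5 times. Among those that turned, the medians ran from -0.16 to 0.012 for FOXO targets, -0.11 to 0.044 for G1 genes and -0.26 to 0.080 for metalloproteinases, -0.17 to 0.047 for ERK output, -0.16 to 0.062 for cholesterol and fatty acid synthesis, -0.16 to 0.019 for the BCL2 family, -0.24 to 0.060 for S100 proteins and -0.33 to 0.015 for EGF-family ligands. Signs turned for EMCN (-1.06 to 0.22 with 1 library left out), FGFR2 (-0.0071 to 0.24) and PIK3CD (-0.32 to 0.40; 0.018 scaled to human plus mouse reads, 0.032 in edgeR, 0.048 in DESeq2, 0.15 with array weights). The cause was not tested. Depth limits genes of low value, such as FGFR1 and NRG4.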
